A study of Mus musculus with 9 samples.

Results

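The miRNAs described here are 10 mature miRNAs that are usually read as marks of mesenchymal and endothelial cells: mmu-miR-143-3p, mmu-miR-145a-5p, mmu-miR-145a-3p, mmu-miR-199a-3p, mmu-miR-199b-3p, mmu-miR-199a-5p, mmu-miR-214-3p, mmu-miR-126a-3p, mmu-miR-126a-5p and mmu-miR-152-3p, written below without the mouse prefix. They were chosen by name from the 1101 mature miRNAs listed in at least 1 library, and all 10 were listed. They were counted in small RNA of exosomes, the small vesicles that cells release, from RAW264.7 cells, an established mouse macrophage line. The groups were exosomes of cells kept with silica for 24 h, of cells kept with silica for 48 h and of untreated cells, with 3 libraries each, and the culture medium of all of them held fetal bovine serum. The sources used here give no dose of silica and no culture time of the untreated cells. Nothing says whether the libraries of a group came from separate cultures beyond the design text, which calls them independent, so p-values measure the spread between these libraries.

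As background, a miRNA guides Argonaute proteins to messenger RNAs that pair with its seed, the bases 2 to 8 counted from the 5′ end. A hairpin precursor gives a 5p and a 3p arm, and usually 1 arm is kept in excess. The hairpins of miR-143 and miR-145 are made from a shared transcript and are known for the smooth muscle phenotype. Those of miR-199a-2 and miR-214 lie in Dnm3os, a noncoding transcript of fibroblasts and other mesenchymal cells, and miR-126 is carried by Egfl7, a gene of endothelial cells. miR-152 belongs to the miR-148 family, known for targeting DNA methyltransferase transcripts. None of these miRNAs is known as a mark of macrophages.

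The sequences below were taken from RefSeq (GRCm38.p6), which matched 6 of the 10 members. They are shown because miR-199a-3p and miR-199b-3p are equal in all 22 bases, and because miR-152-3p shares its seed with miR-148a-3p and miR-148b-3p. Capitals mark the seed.

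miR-199a-3p: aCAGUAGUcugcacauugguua

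miR-199b-3p: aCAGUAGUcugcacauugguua

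miR-199a-5p: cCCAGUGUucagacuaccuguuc

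miR-214-3p: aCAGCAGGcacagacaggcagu

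miR-126a-3p: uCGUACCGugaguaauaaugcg

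miR-152-3p: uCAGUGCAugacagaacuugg

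miR-148a-3p: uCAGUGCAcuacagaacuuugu

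miR-148b-3p: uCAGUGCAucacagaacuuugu

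Among the 6 members, miR-199a-3p and miR-199b-3p are the 2 that share a seed. Counted from the 5′ end of miR-152-3p, miR-148b-3p differs from it by G10C and G20U over the 21 bases compared, and miR-148a-3p by U9C, G10U and G20U. The 22 bases of miR-199a-3p and miR-199b-3p occur in 3 hairpins on 3 chromosomes. In the hairpins below, capitals mark those 22 bases. The hairpins as a whole differ, but they share stretches outside the capitals, and Mir199a-1 and Mir199a-2 both hold the whole of miR-199a-5p.

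Mir199a-1: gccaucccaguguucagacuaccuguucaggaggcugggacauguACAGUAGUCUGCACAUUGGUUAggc

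Mir199a-2: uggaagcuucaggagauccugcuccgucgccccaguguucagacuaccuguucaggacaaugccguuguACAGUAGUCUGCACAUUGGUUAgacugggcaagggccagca

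Mir199b: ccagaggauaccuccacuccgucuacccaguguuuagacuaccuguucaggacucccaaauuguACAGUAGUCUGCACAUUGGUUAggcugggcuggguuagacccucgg

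In mm10, Mir199a-1 lies at chr9:21496495-21496564 (minus strand) in an intron of Dnm2, on the opposite strand of that gene. Mir199b lies at chr2:32318460-32318569 (plus strand) in an intron of Dnm1, again on the opposite strand. Mir199a-2 at chr1:162217814-162217923 and Mir214 at chr1:162223368-162223477 (plus strand) are 5444 bases apart, exonic in Dnm3os and opposite to an intron of Dnm3. Mir126a at chr2:26591357-26591429 (plus strand) overlaps annotated exonic sequence of Egfl7, and Mir126b covers chr2:26591363-26591420 on the minus strand of the same locus. Mir152 lies at chr11:96850393-96850465 (plus strand) in an intron of Copz2. Mir145a at chr18:61647825-61647894 and Mir143 at chr18:61649196-61649258 (minus strand) are 1301 bases apart, between genes in GENCODE M21 and within the span of the noncoding gene Carmn in RefSeq.

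Between 2158418 and 8331451 mature miRNA reads were counted per library, or 28.0% to 44.7% of all counted small RNA reads. The members together took 0.108% to 0.226% of mature counts, so they are a small part of the cargo. Values below are in CPM, counts scaled to the mature miRNA total of the library and its TMM factor. A count of 3, taken as the limit of detection, corresponds to 0.314 to 1.55 CPM in a library and covers counting error only. The macrophage markers miR-223-3p, miR-142a-3p, miR-142a-5p, miR-146a-5p, miR-155-5p and miR-21a-5p were listed in every library. Their summed level was 70806 to 82837 CPM at 24 h, 85607 to 107348 at 48 h and 75494 to 105025 in untreated. Most of this sum was miR-146a-5p and miR-21a-5p, which averaged 49700 and 37915 CPM over the 9 libraries. On the same average miR-155-5p had 800 CPM, miR-223-3p 125.7, miR-142a-5p 88.7 and miR-142a-3p 74.2. Thus miR-223-3p and both arms of miR-142a averaged less than miR-126a-3p (537 CPM). They also averaged less than miR-199a-3p and miR-199b-3p together (827 CPM). Library 2 of 48 h and library 2 of untreated were the most alike of any 2 libraries (r = 0.969 of log2 levels, a description across miRNAs) and listed the most mature miRNAs (912 and 829). Results that rest on these 2 libraries are therefore also given without them.

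Across the 9 libraries the members fell into 3 levels. At the top, miR-126a-3p averaged 537 CPM, and miR-199a-3p and miR-199b-3p together averaged 827 CPM. In the middle were miR-143-3p at 37.7, miR-199a-5p at 15.9, miR-126a-5p at 11.2, miR-152-3p at 8.99 and miR-214-3p at 3.24 CPM. At the bottom, miR-145a-5p had 29 counts in all and miR-145a-3p had 3. By mean CPM miR-126a-3p ranked 74 and miR-214-3p ranked 391 among the 453 miRNAs with enough counts for a test. The 8 members other than the 2 arms of miR-145a were among these 453.

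**Figure D1:**
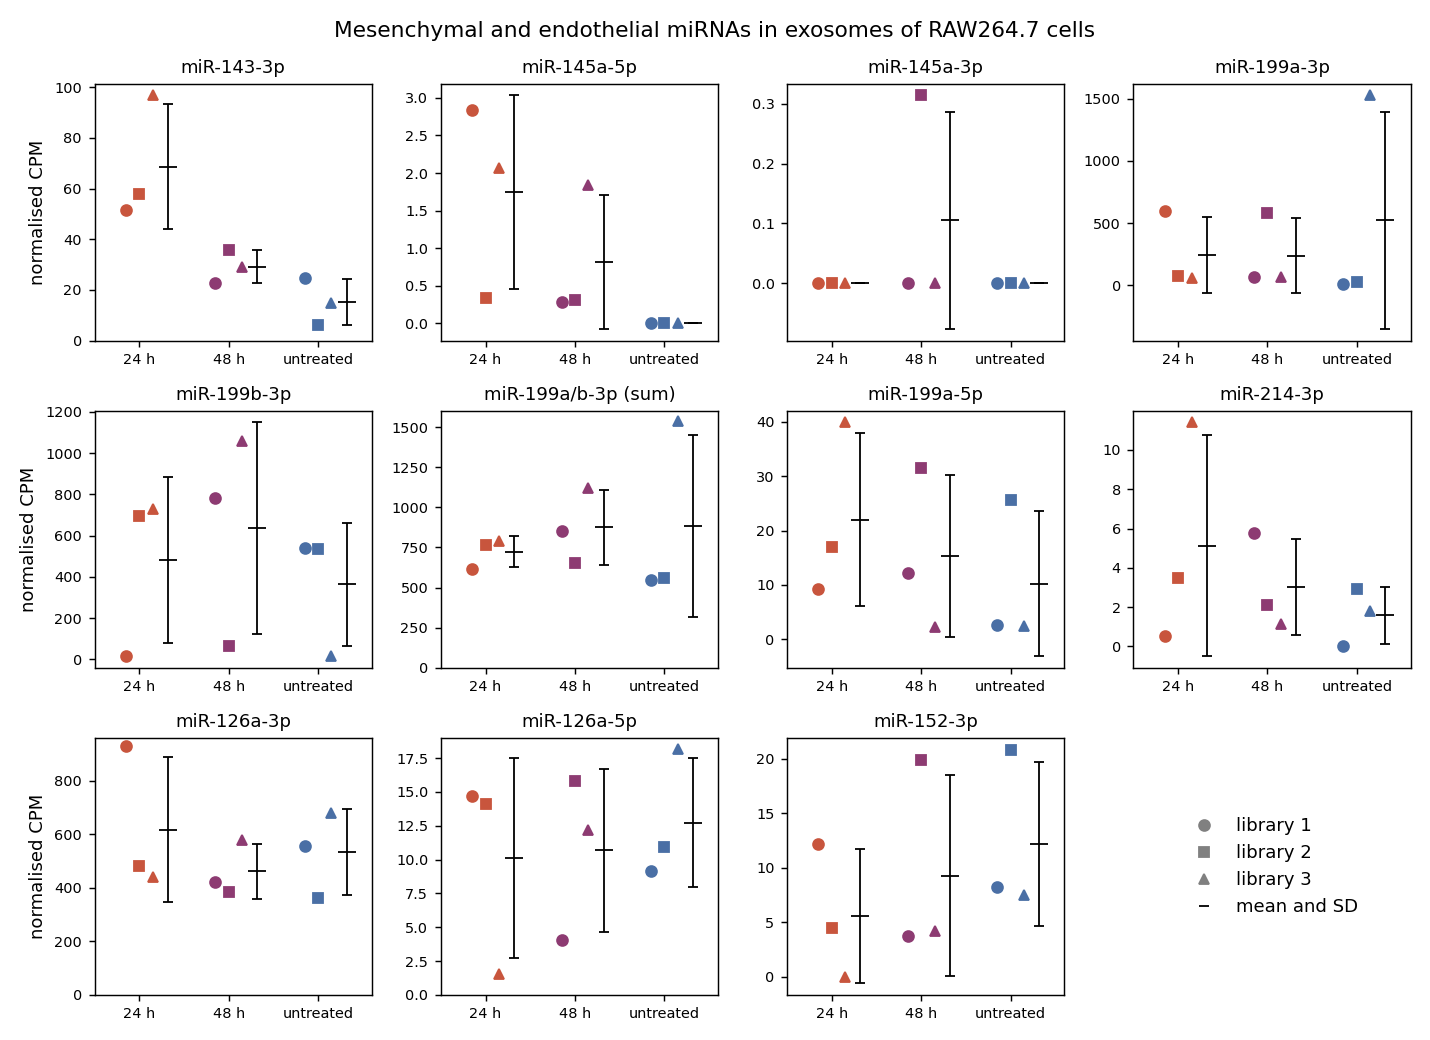
Normalised CPM (linear axes, each with its own scale) of the 10 members and of the summed miR-199-3p in every library, by group; black marks are the mean and SD of 3 libraries. For miR-143-3p the 24 h libraries lie at 51.4 to 96.9 CPM, above those of 48 h and of untreated, while most other panels overlap between groups.

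miR-143-3p had its highest levels in exosomes of cells with silica for 24 h, but no difference passed the test across all miRNAs. miR-143-3p, which is abundant in smooth muscle, had 51.4, 57.8 and 96.9 CPM at 24 h and 24.6, 6.32 and 14.8 CPM in untreated. Every 24 h library lay above every untreated library, which was so for 10.4% of the 453 tested miRNAs, and the lowest value was that of untreated library 2. Mean levels were 68.7 ± 24.6 CPM for 24 h and 15.2 ± 9.14 CPM for untreated (SD, n = 3). The log2 fold change was 2.17 ± 0.63 (SE) with a 95% interval of 0.80 to 3.54. In edgeR's quasi-likelihood test p was 0.00484, and 0.386 after Benjamini-Hochberg adjustment over the 453 miRNAs. Over the other settings tried the log2 fold change ran from 1.81 to 2.65 and the adjusted p (edgeR, DESeq2 or limma) from 0.0729 to 0.900. Its values without each single library ran from 1.83 to 2.65.

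At 48 h, miR-143-3p had 22.8, 35.8 and 29.03 CPM, against the untreated values above. The 48 h range of 22.8 to 35.8 CPM overlapped the untreated range, whose highest value was 24.6. The log2 fold change was 0.94 ± 0.61 (SE; 95% interval -0.38 to 2.27; edgeR adjusted p = 0.997). Set against the 24 h libraries, all 3 libraries of 48 h were lower, as for 10.4% of all tested miRNAs (log2 fold change -1.23 ± 0.61, 95% interval -2.56 to 0.10, edgeR adjusted p = 0.458). The order of the group means was therefore 24 h, 48 h, untreated, and 48 h and untreated are neighbours that did not differ beyond their spread. Without libraries 2 of 48 h and of untreated, the log2 fold changes were 1.81 at 24 h and 0.39 at 48 h against untreated. The 48 h value was 0.59 without untreated library 2 and 1.46 without untreated library 1.

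miR-145a-5p, the neighbour of miR-143 on its transcript, was near the limit of detection. It had 11, 2 and 4 counts in the libraries of 24 h, 1, 3 and 8 counts at 48 h, and 0 counts in each of the 3 untreated libraries. Every silica library thus lay above the untreated libraries. Library 2 of 24 h and library 1 of 48 h were, however, under the 3 counts taken as the limit of detection. Such a separation held for 10.4% of the 453 tested miRNAs at 24 h and 2.21% at 48 h, a set that miR-145a-5p did not enter. With the untreated group set to 3 counts over its libraries (0.192 CPM), the pooled level was 7.48-fold higher at 24 h and 3.6-fold higher at 48 h. At the lower Poisson 95% limit of the pooled silica counts (9.90 and 6.20 counts) these became 4.36-fold and 1.86-fold. That limit covers counting error only and not the spread between libraries. A single library carried most counts in both groups: without library 1 of 24 h the first value was 3.93-fold (6 counts), and without library 3 of 48 h the second was 1.6-fold (4 counts). It did not reach the filter on low counts. A fit of all 1101 miRNAs with no filter (edgeR, quasi-likelihood) gave it an adjusted p of 0.465 at 24 h, 1 at 48 h against untreated and 0.889 for 48 h against 24 h. miR-145a-3p had 3 counts in library 2 of 48 h and 0 in the other 8. miR-143-5p, the other arm of miR-143, had 1 count in the same library and 0 elsewhere, and miR-145b was not listed.

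The ratio of miR-143-3p to miR-145a-5p counts, with 0.5 added to both, was 53, 97.9 and 14.9 in the libraries of 48 h and 17.3, 139.8 and 41.7 in those of 24 h. These ratios overlapped (mean log2 ratio 5.41 ± 1.39 at 48 h and 5.54 ± 1.51 at 24 h, SD, n = 3; two-sided exact permutation p = 0.9). The smallest p that 3 against 3 libraries allow is 0.1.

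The miRNA whose pattern over the 9 libraries was closest to that of miR-143-3p was miR-451a, the dominant red cell miRNA. Closeness was the root mean square difference of log2(CPM + 1), each miRNA centred on its own mean, and it was 0.485 for miR-451a and 0.632 for miR-487b-3p, a miRNA of the imprinted Dlk1-Dio3 region, the 2 lowest of 452 candidates. miR-451a had 1605, 872 and 3380 CPM in the 24 h libraries, 762, 786 and 409 CPM in those of 48 h, and 630, 148 and 556 CPM in those of untreated. Like miR-143-3p it was highest in library 3 of 24 h and lowest in untreated library 2. Its log2 fold change at 24 h against untreated was 2.14 ± 0.69 (SE, edgeR adjusted p = 0.386). miR-487b-3p was far scarcer, with 60, 61 and 13 counts at 24 h, 5, 33 and 16 at 48 h, and 9, 1 and 15 in untreated. In untreated library 2 it was thus under the limit of detection.

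**Figure D2:**
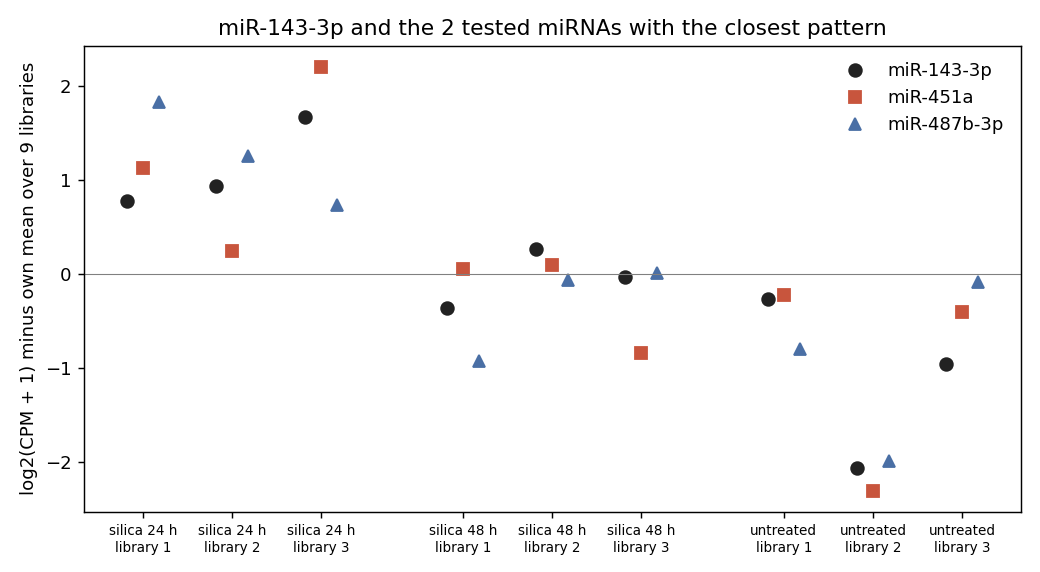
Log2(CPM + 1) minus each miRNA's own mean over 9 libraries, for miR-143-3p, miR-451a and miR-487b-3p, with a point for each library. All 3 miRNAs are lowest in untreated library 2 and lie above their own mean in the 3 libraries of 24 h. The lowest point of miR-487b-3p rests on 1 count.

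The summed level of the markers of serum, liver and red blood cells was highest at 24 h, in a list that holds miR-451a itself. All 4 listed markers (miR-451a, miR-486a-5p, miR-144-3p and miR-122-5p) were present in each group, with a summed level of 2130 to 5643 CPM at 24 h, 1197 to 1723 at 48 h and 406 to 1858 in untreated. Without miR-451a the other 3 summed to 1258 to 2264 CPM at 24 h, 410 to 1091 at 48 h and 258 to 1303 in untreated, so that 24 h and untreated overlapped. Within this list miR-122-5p, the main liver miRNA, followed the same order at 24 h against untreated (log2 fold change 1.14, edgeR adjusted p = 0.543), miR-486a-5p did not (-0.13, edgeR adjusted p = 0.878), and miR-144-3p had 5, 16 and 6 counts in the groups of 24 h, 48 h and untreated. The 3 skeletal and heart muscle markers (miR-1a-3p, miR-133a-3p and miR-206-3p) summed to 2.49 to 4.66 CPM at 24 h, 0 to 0.867 at 48 h and 0 to 2.05 in untreated, close to the limit of detection. The 7 epithelial markers, led by the miR-200 family, summed to 171 to 282 CPM at 24 h, 224 to 320 at 48 h and 208 to 305 in untreated, and the 3 neuronal ones (miR-124-3p, miR-9-5p and miR-128-3p) to 416 to 691, 464 to 732 and 410 to 824 CPM. The part of these cell types and of the serum of the medium in the miR-143-3p values was not tested. The tables give every read a mouse name, so reads from bovine serum and from the cells cannot be told apart here, and neither can more vesicles with a miRNA and more of it per vesicle.

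For miR-199-3p the 2 names varied widely and in opposite directions, while their sum varied far less. Under the name miR-199a-3p the 24 h libraries had 2318, 431 and 116 counts, the 48 h libraries 239, 5562 and 276, and the untreated libraries 52, 159 and 6720. Under the name miR-199b-3p they had 61, 4183 and 1410 counts at 24 h, 2705, 611 and 4596 at 48 h, and 2899, 3119 and 74 without silica. In each group 1 library had most of the reads under miR-199a-3p: library 1 of 24 h with 97.4%, library 2 of 48 h with 90.1% and library 3 of untreated with 98.9%. In the other 6 libraries the share was 1.76% to 9.34%. The Wilson 95% intervals of the shares, which cover counting error only, were 96.7% to 98.0% in library 1 of 24 h and 6.38% to 9.04% in library 3 of 24 h. As the 2 mature sequences are equal, a mature read cannot be placed under a name by its sequence, and the sources used here do not say which rule placed such reads.

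**Figure D3:**
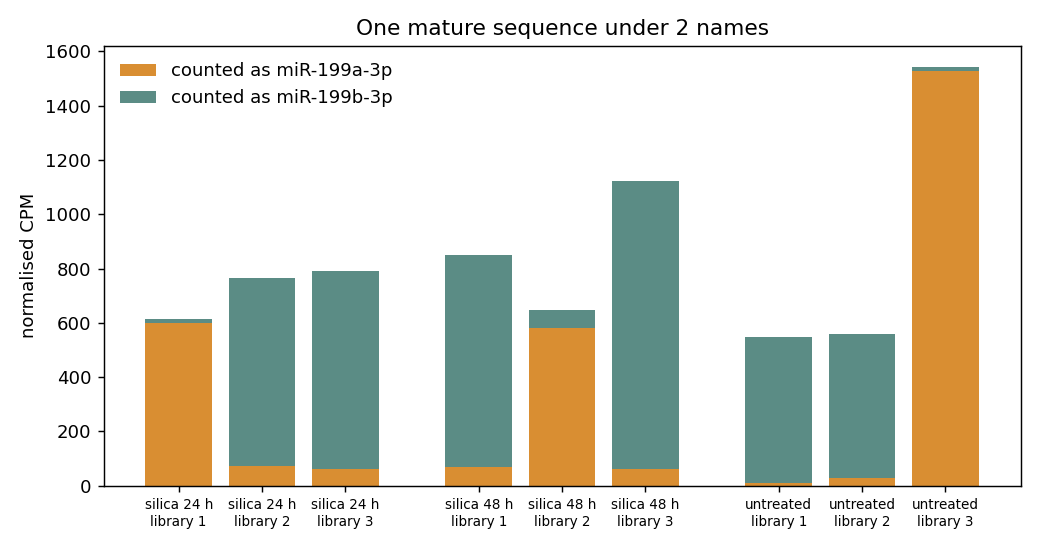
Normalised CPM counted as miR-199a-3p (lower part of each bar) and as miR-199b-3p (upper part) in the 9 libraries. The name that holds most reads changes in library 1 of 24 h, library 2 of 48 h and library 3 of untreated, while the summed height stays between 549 and 1540 CPM.

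The highest library was 158 times the lowest for miR-199a-3p, 67.2 times for miR-199b-3p and 2.81 times for their sum. Summed miR-199-3p, a miRNA of fibroblasts and other mesenchymal cells that is also plentiful in blood, had 614, 766 and 790 CPM at 24 h, 850, 651 and 1122 CPM at 48 h, and 549, 559 and 1540 CPM in untreated. The groups overlapped, and untreated library 3 held the highest value. The log2 fold changes of the sum were -0.29 ± 0.54 at 24 h (SE; 95% interval -1.46 to 0.89; edgeR adjusted p = 0.886), -0.01 ± 0.54 at 48 h (-1.19 to 1.16; edgeR adjusted p = 0.998) and 0.27 ± 0.54 for 48 h against 24 h (-0.90 to 1.45; edgeR adjusted p = 0.824). Without untreated library 3 the first pair became 0.30 and 0.58. Taken singly, miR-199a-3p had an SE of 1.57 and miR-199b-3p an SE of 1.32 on the log2 scale at 24 h against untreated. The sum was closest in pattern to miR-128-3p (root mean square difference 0.289) and miR-27b-3p (0.311), while the nearest miRNAs of the single names were at 1.69 for miR-199a-3p (miR-324-5p) and 1.62 for miR-199b-3p (miR-221-5p). This measure is not scaled to the spread of a miRNA. The larger distances of the single names are therefore not separate from their wider variation.

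The 5p arm, miR-199a-5p, whose sequence differs from that of the 3p arm, was scarcer. It had 9.3, 16.9 and 39.9 CPM at 24 h, 12.1, 31.5 and 2.3 CPM at 48 h, and 2.61, 25.6 and 2.5 CPM in untreated. Each group had 1 library well above its other 2: library 3 of 24 h and the libraries 2 of 48 h and untreated. The log2 fold change was 1.09 ± 1.10 at 24 h and 0.58 ± 1.08 at 48 h against untreated (SE; 95% intervals -1.31 to 3.49 and -1.79 to 2.96; edgeR adjusted p = 0.728 and 0.997). Without the libraries 2 of 48 h and untreated these were 3.09 and 1.48 (edgeR adjusted p = 0.375 and 1). In the other direction, the 24 h value was 0.30 without library 3 of 24 h, and the 48 h value was -0.59 without library 2 of 48 h. Summed miR-199-3p exceeded miR-199a-5p in every library. The ratio was 65.2, 45.02 and 19.7 at 24 h, 69.3, 20.5 and 464 at 48 h, and 204, 21.8 and 591 in untreated. The sum can also hold reads of Mir199b, which does not give miR-199a-5p, so this is not the arm ratio of a single hairpin. The mean log2 ratio was 5.27 ± 0.88 at 24 h and 7.11 ± 2.43 in untreated (SD, n = 3; two-sided exact permutation p = 0.3), and 6.44 ± 2.27 at 48 h (exact permutation p = 0.7 against untreated). The 5p arm of miR-199b was listed in 4 libraries with 15 counts.

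miR-214-3p, made from the same transcript as miR-199a-2, was the scarcest tested member. It had 2, 21 and 22 counts at 24 h, 20, 20 and 5 counts at 48 h, and 0, 17 and 8 counts in untreated. The groups overlapped, and its level was 5.13 ± 5.63 CPM on average in the 24 h libraries, 3.01 ± 2.44 in those of 48 h and 1.57 ± 1.47 in those of untreated (SD, n = 3). The log2 fold changes against untreated, 1.65 ± 1.46 at 24 h and 0.91 ± 1.44 at 48 h (SE), had edgeR adjusted p-values of 0.707 and 0.997. Leaving out single libraries moved the 24 h value between 0.33 (without library 3 of 24 h) and 2.46 (without untreated library 2), and the 48 h value between 0.10 (without library 1 of 48 h) and 1.72 (without untreated library 2). The other arm, miR-214-5p, had 18 counts at 24 h, 13 at 48 h and 4 in untreated. The log2 ratio of miR-199a-5p to miR-214-3p averaged 2.64 ± 1.09 at 24 h, 1.95 ± 1.67 at 48 h and 2.8 ± 2.23 in untreated (SD, n = 3), with exact permutation p-values of 1 and 0.7 against untreated.

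miR-126a-3p, the main miRNA of endothelial cells, varied least of the 6 members counted in all libraries. It had 930, 480 and 442 CPM at 24 h, 421, 385 and 577 CPM at 48 h, and 556, 361 and 679 CPM in untreated. The groups overlapped, and the highest of the 9 libraries was 2.58 times the lowest. The log2 fold change was 0.21 ± 0.52 at 24 h (SE; 95% interval -0.93 to 1.36; edgeR adjusted p = 0.902), -0.21 ± 0.52 at 48 h (-1.35 to 0.94; 0.997) and -0.42 ± 0.52 for 48 h against 24 h (-1.56 to 0.72; 0.761). Without library 1 of 24 h the first value was -0.27. The nearest patterns were those of miR-5123 and miR-652-3p (root mean square difference 0.362 and 0.363). As miR-126a-3p itself varied little, such small differences do not by themselves show a shared pattern. The 2 nearest miRNAs also differed from each other. In untreated library 1 miR-652-3p had its lowest level (8664 CPM), while miR-5123 had 16.8 CPM there and its lowest level, 6.49 CPM, in untreated library 2.

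The other arm, miR-126a-5p, had 57, 85 and 3 counts at 24 h, 14, 151 and 53 counts at 48 h, and 49, 64 and 80 counts in untreated. Library 3 of 24 h, which held the fewest mature counts, stood lowest at 1.55 CPM, and the other 8 libraries lay between 4.04 and 18.2 CPM. The log2 fold changes against untreated were -0.31 ± 0.84 and -0.24 ± 0.84 at 24 h and 48 h (SE; edgeR adjusted p = 0.912 and 0.997), and the first was 0.17 without that library. The 3p arm exceeded the 5p arm by 62.6, 33.9 and 244 times at 24 h, 100.6, 24.2 and 46.9 times at 48 h, and 60.3, 32.8 and 37.2 times in untreated. The mean log2 ratio was 6.33 ± 1.46 at 24 h and 5.39 ± 0.46 in untreated (SD, n = 3; exact permutation p = 0.4). Mir126b, on the opposite strand, gave 30 counts of its 3p arm and 4 of its 5p arm over the 9 libraries. Over the 10 ratio comparisons made, all p-values adjusted by Benjamini-Hochberg were 1.

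miR-152-3p had 12.1, 4.47 and 0 CPM at 24 h, 3.76, 19.9 and 4.15 CPM at 48 h, and 8.19, 20.8 and 7.49 CPM in untreated. The highest values of 48 h and of untreated were in their libraries 2, the pair most alike. The log2 fold change was -1.11 ± 1.16 at 24 h and -0.38 ± 1.13 at 48 h against untreated (SE; edgeR adjusted p = 0.741 and 0.997), and the second was 0.27 without untreated library 2. Between libraries of the same number, the 48 h level was below the untreated level for all 3 numbers, and with the replicate block the values were -1.39 and -0.56 (edgeR adjusted p = 0.526 and 0.982). Without both libraries 2 they were -0.44 and -0.99 (edgeR adjusted p = 0.964 and 1). Its seed relative miR-148b-3p, with the same bases 2 to 8 as shown above, was also highest in those libraries 2, with 7.49, 9.94 and 8.81 CPM at 24 h, 10.98, 29.1 and 10.6 CPM at 48 h, and 15.3, 24.1 and 14.8 CPM in untreated. All 24 h values of miR-148b-3p lay under all untreated values, as for 6.18% of the tested miRNAs (log2 fold change -1.04 ± 0.64, edgeR adjusted p = 0.58). miR-148a-3p had the opposite sign at 24 h (1.17 ± 1.09, edgeR adjusted p = 0.716), with means of 5.63 ± 3.72 CPM for 24 h and 2.48 ± 1.62 for untreated (SD, n = 3).

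**Figure D4:**
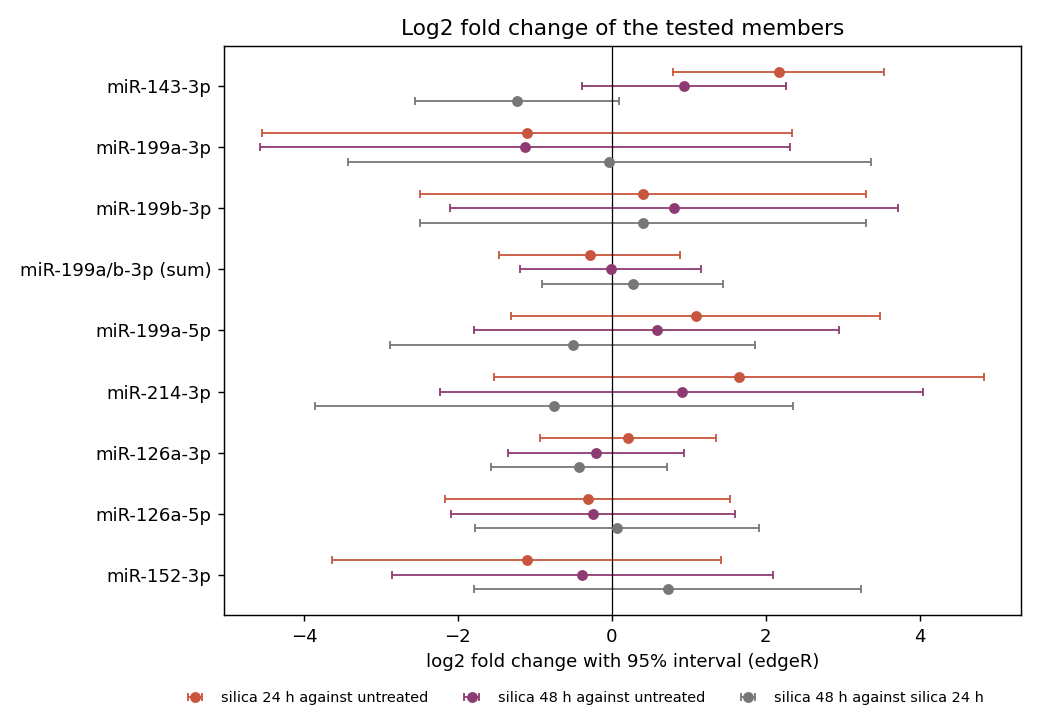
Log2 fold change with its 95% interval from edgeR for the 8 tested members and the summed miR-199-3p in the 3 comparisons. The interval of miR-143-3p at 24 h against untreated, 0.80 to 3.54, lies above 0, and all other intervals include 0.

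Over the whole set, 0 of the 8 tested members had an adjusted p under 0.05 by edgeR in any of the 3 comparisons, where 0 of all 453 miRNAs passed (0%). With DESeq2 and limma-voom 0 members passed as well, but DESeq2 gave no adjusted p for miR-199a-3p. DESeq2 called 4, 1 and 6 of all miRNAs at 24 h against untreated, 48 h against untreated and 48 h against 24 h. With the replicate number as a block, edgeR called 3, 0 and 3 of all miRNAs and again 0 members. Same-numbered libraries deviated together in both comparisons with untreated, but clearly so for number 2 alone. At an unadjusted p under 0.05 edgeR had 1 member at 24 h, miR-143-3p, beside 10.2% of all tested miRNAs (5.52% in the higher direction). It had 0 members at 48 h against untreated, beside 0.883% of all (0.442% higher), and 0 for 48 h against 24 h, beside 9.71% (5.52% higher).

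At 24 h, 5 of the 8 tested members had a log2 fold change above 0, beside 46.6% of all miRNAs, with a median of 0.31 for the members and -0.07 for all 453. At 48 h against untreated these were 4 of 8 beside 52.5%, with medians of 0.19 and 0.03, and for 48 h against 24 h 3 of 8 beside 54.1%, with medians of -0.23 and 0.14. With miR-199a-3p and miR-199b-3p taken as their sum, 4, 3 and 3 of 7 values were above 0 in these comparisons, with medians of 0.21, -0.01 and -0.42, so the median at 48 h against untreated turned sign. Of the 8 tested members, miR-143-3p was the 1 whose 24 h libraries all lay above untreated, which held for 10.4% of all miRNAs, and the 1 whose 48 h libraries all lay below 24 h, which also held for 10.4%. At 48 h against untreated 0 of the 8 tested members separated, beside 3.75% of all miRNAs in either direction (1.55% lower). At 24 h against untreated 16.6% of all miRNAs separated in either direction, and for 48 h against 24 h 20.8%. The comparisons with untreated share its libraries, so the values at 24 h and 48 h are not independent of each other.

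The tables also list reads under precursor families of the Rfam collection, a separate class from the mature miRNAs. Reads of the mir-126 family were 39.8, 45.6 and 15.96 RPM (counts scaled to the total of all counted reads) at 24 h, 49.8, 40.3 and 38.3 at 48 h, and 43.3, 24.9 and 35.01 in untreated. Library 3 of 24 h was again the lowest, as for miR-126a-5p. Reads of the mir-199 family were 66.6, 89.3 and 69.03 RPM at 24 h, 76.6, 2.95 and 108 at 48 h, and 46.7, 63.4 and 147 in untreated. Library 2 of 48 h stood far under the other 8, and untreated library 3, the highest, was also the highest in summed miR-199-3p. Reads of the mir-143 family were 1, 5 and 0 in the libraries of 24 h and 0 in the other 6, and those of the mir-148/mir-152 family were 2 in all.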

How the data were processed

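Small RNA counts of 9 exosome libraries were used, grouped by the labels. Per the submitters' processing notes, Trim Galore, Bowtie and HTSeq were used with mm10, with no versions. The authors deposited, per the file headers, the read count of each small RNA and a value headed TPM, which is the count scaled to the total of all counted reads (RPM; matched within 0.005 in 9 of 9 files) and was not tested. Unlisted miRNAs were taken as 0, since mature miRNAs are listed from 1 count.

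From the deposited counts, edgeR 4.0.16 (R 4.3.3) tested the 453 of 1101 mature miRNAs kept by filterByExpr with a minimum count of 10, with TMM factors of 0.829 to 1.16, in a single quasi-likelihood fit over 9 libraries with 6 residual degrees of freedom. Between 99.96% and all of a library's mature counts fell in these 453. P-values were Benjamini-Hochberg adjusted over the 453 (452 with miR-199a-3p and miR-199b-3p summed). The SE of a log2 fold change was the fitted change divided by the root of the F statistic, and the median SE was 0.828 at 24 h against untreated. The fitting code was also run on counts simulated with the fit's own dispersions or a fraction of them. Such a run cannot show whether the model suits these data. Ratios within a library had 0.5 counts added to both terms. The members and lists were chosen with earlier results of these data known. Beyond the members, the text names the other arms and seed relatives, the markers, and for members with a mean of at least 10 CPM the miRNAs with the closest pattern. Ratios with miR-145a-3p were not computed, and ratios with miR-145a-5p were not compared with untreated, because the counts were at the limit of detection.

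Same-numbered libraries deviated together from their group means, with r of 0.136, 0.439 and 0.149 for numbers 1, 2 and 3 of 24 h with untreated and 0.152, 0.636 and 0.315 of 48 h with untreated, but -0.07, 0.289 and 0.253 of 48 h with 24 h. The labels state no pairing. In both comparisons with untreated, number 2 stood out by this measure. Library 3 of 24 h and library 3 of 48 h had a higher r with untreated library 1 (0.160 and 0.360) than with untreated library 3. The numbers therefore do not clearly pair the libraries beyond number 2. No library repeated another of its group (chi-square over degrees of freedom 261 to 3147). DESeq2 1.42.0, limma 3.58.1, other scalings and filters, a replicate block and leaving out each library were tried as alternatives. Leaving out miR-451a from its marker list, the limits of miR-145a-5p without single libraries, and the member counts with miR-199-3p summed were added after seeing the data.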

Additional observations from a re-analysis of the deposited data

Results flagged for a closer look

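Reads under the Rfam mir-143 precursor family, a class that the comparisons of mature miRNAs do not use, reached 5 counts in library 2 of 24 h, above the untreated libraries, which had 0 each. This count is little above the 3 counts taken as the limit of detection, and the other libraries of 24 h had 1 and 0 counts. The groups of 3 libraries are too small for a search for single libraries far from the rest.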

How the results depend on the processing

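In every setting tried 0 members passed the adjusted threshold in any of the 3 comparisons, though DESeq2 gave no adjusted p for miR-199a-3p. The number of all miRNAs called at 24 h against untreated, 0 as reported, was 1 with upper-quartile factors and with only the 2 groups compared, 7 without a filter on low counts, 4 with DESeq2 and 3 with the replicate block. At 48 h against untreated it was 1 without a filter and 1 with DESeq2. For 48 h against 24 h it was 16 without a filter, 6 with DESeq2 and 3 with the replicate block. Without single libraries it was 0 to 1, 0 to 0 and 0 to 1.

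miR-143-3p kept its sign in all settings of all 3 comparisons. The replicate block changed no call of a member. Of the log2 fold changes that turned sign, miR-199a-3p at 24 h was 0.96 with limma-voom and 0.31 with the replicate block, and at 48 h against untreated 1.06 and 0.19. For 48 h against 24 h it was 0.15 with the mature total alone, 0.41 with the total of all counted reads, 0.17 without a filter, 0.10 with limma-voom and 0.039 with only the 2 groups compared. The summed miR-199-3p at 48 h against untreated was 0.042 with upper-quartile factors, 0.049 without a filter, 0.13 with limma-voom and 0.10 with the replicate block. For 48 h against 24 h, miR-126a-5p was -0.020 with upper-quartile factors, -0.0030 at a minimum count of 50, -0.0079 with the replicate block and -0.36 without the libraries 2 of 48 h and untreated, an alternative chosen after seeing the data. In the same comparison miR-152-3p was -0.54 without those libraries, miR-199a-5p was 0.029 with the total of all counted reads, and miR-214-3p was 0.12 with the replicate block. The log2 ratio of miR-199a-5p to miR-214-3p at 24 h was 0.074 with 1 count added. The cause of these changes was not tested.

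Without single libraries, values that turned sign at 24 h against untreated ran from -3.004 to 3.67 for miR-199a-3p, -0.26 to 0.87 for miR-199b-3p, -0.58 to 0.30 for their sum, -0.27 to 0.40 for miR-126a-3p, -0.70 to 0.17 for miR-126a-5p and -1.35 to 0.86 for the log2 ratio of miR-199a-5p to miR-214-3p. At 48 h against untreated they ran from -2.97 to 3.71 for miR-199a-3p, -0.0086 to 1.31 for miR-199b-3p, -0.31 to 0.58 for the sum, -0.66 to 0.20 for miR-126a-5p, -1.66 to 0.27 for miR-152-3p and -0.59 to 2.603 for miR-199a-5p. The log2 ratios there ran from -1.995 to 0.39 for summed miR-199-3p to miR-199a-5p, -0.31 to 0.71 for the arms of miR-126a and -2.03 to 0.18 for miR-199a-5p to miR-214-3p. For 48 h against 24 h the values that turned sign ran from -1.91 to 1.98 for miR-199a-3p, -0.29 to 0.94 for miR-199b-3p, -0.64 to 0.029 for miR-126a-3p, -0.39 to 0.52 for miR-126a-5p, -0.54 to 2.01 for miR-152-3p, -1.60 to 0.26 for miR-199a-5p and -1.46 to 0.47 for miR-214-3p. The log2 ratios of this comparison ran from -0.038 to 2.21 for summed miR-199-3p to miR-199a-5p, -1.35 to 0.075 for the arms of miR-126a and -0.84 to 0.66 for miR-143-3p to miR-145a-5p. Depth limits miR-145a-5p, miR-145a-3p and miR-214-3p, which had under 25 counts in every library.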

Other observations

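Among all mature miRNAs with at least 20 summed counts in every library, RefSeq gives 2 pairs of names that share a mature sequence. Beside miR-199a-3p with miR-199b-3p, these are let-7a-1-3p with let-7c-2-3p. The share of reads under let-7a-1-3p was 10.8%, 99.2% and 95.2% at 24 h, 3.15%, 92.4% and 92.9% at 48 h, and 5.08%, 99.4% and 0.271% in untreated. Both pairs had most reads under 1 name in each library, and the leading name changed between libraries of the same group. At 24 h the library that differed from the other 2 was library 1 for both pairs. At 48 h it was library 2 for miR-199-3p and library 1 for let-7, and in untreated library 3 for miR-199-3p and library 2 for let-7. This pair was looked at after the split of miR-199-3p had been seen.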
